A study of Drosophila melanogaster with 3 samples.

Results

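The genes *brm*, *mor*, *osa*, *Snr1*, *Bap60*, *trx*, *ash1*, *ash2* and *kis* of *Drosophila melanogaster* encode core members of the Brahma complex and of the trithorax group. These 9 genes, of 13968 protein-coding genes in all, were taken by name. Every binding summit of the Snoo fusion protein in the body of a gene or within 1 kb of it was collected. The data came from whole pupae with a snoo-MiMIC insertion, in which an exon coding for eGFP, placed in an intron of the gene *Snoo*, makes a Snoo-eGFP fusion. Chromatin of pooled males and females of unknown age was sheared by sonication and precipitated with an antibody against GFP (ChIP-seq), in 1 group of 3 biological replicates numbered 3, 5 and 6. All replicates carried the same insertion and no other genotype or treatment was among the samples. The whole animal mixes every tissue of the pupa, so a peak cannot be assigned to a tissue, and no marker of a cell type can be checked in DNA. Each replicate has a list of 30000 candidate regions, background regions included. A list of 6633 peaks passed the authors' threshold on the irreproducible discovery rate (the IDR list), and it equals the strongest 6633 regions of the pooled replicates. Numbers of reads were not given in the sources used here, so the depth is unknown. No control library was among the samples, and counts are set beside the same count over all protein-coding genes or over all IDR peaks, without a test.

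Trithorax group genes were found in flies as genes that keep homeotic genes active, against the silencing by Polycomb group proteins. The Brahma complex is the SWI/SNF remodeller of flies and moves nucleosomes with the energy of ATP. Brm is the ATPase, Mor, Snr1 and Bap60 are subunits common to the forms called BAP and PBAP, and Osa marks BAP. Trx and Ash1 are methyltransferases of histone H3, Ash2 is a subunit shared by the COMPASS-type methyltransferase complexes, and Kis is a remodeller of the CHD family. Snoo, which carries the tag here, belongs to the transcriptional coregulators related to Ski and SnoN, known as partners of Smad proteins.

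In the IDR list, 4 of the 9 genes (*brm*, *Snr1*, *Bap60* and *trx*) had a summit within 1 kb of an annotated start, against 25.2% of all protein-coding genes (3526 of 13968). With the gene body and 1 kb on each side, 7 of 9 had a summit, against 31.5% of all genes, and *mor* and *ash2* had none. The count at starts moved with the definition: it was 7 of 9 within 2000 bp, against 30.7% of all genes, and 2 of 9 (*brm* and *Snr1*) with peaks among the strongest 6633 regions of all 3 replicates, against 16.1%. The 7 genes held 21 summits: 6 in *osa*, 5 each in *trx* and *kis*, 2 in *brm* and 1 each in *Snr1*, *Bap60* and at the 3′ end of *ash1*. Introns of the gene itself held 16 of the 21, and 15 of these lay in *osa*, *trx* and *kis*. None lay in a coding exon. Of the rest, 3 were upstream of a start, 1 was in a 5′ UTR and 1 was downstream of the gene. No share of all IDR peaks is given for these places, so they are not read as a trait of the 9 genes.

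Of these summits, 6 of 21 (28.6%) had a protein-coding start within 1 kb, against 49.2% of all IDR peaks (3265 of 6633). Another 6 had only the start of a non-coding RNA within 1 kb, and 9 were over 1 kb from any start. The share of all IDR peaks is not given for either class by itself, so neither is read as a trait of these genes. With starts of both kinds, 12 of 21 were within 1 kb of one, against 54.8% of all IDR peaks (3633), so the smaller share held for protein-coding starts alone. Their signal, the value that the authors' peak caller gave against a control alignment, had a median of 309.8, against 222.1 in the whole list. Of the 21, 16 (76.2%) were among the 3317 strongest IDR peaks, and 5 had a signal over 1000, against 231 of all 6633 (3.48%). These 5 were 2 peaks in *osa* and 1 each at the 3′ end of *ash1*, at the *brm* start and in *trx*. Since signal has a different scale in each list, a replicate's value is also given relative to its own region of rank 6633, which is 1 on that scale (a signal of 38.9 in replicate 3, 44.4 in replicate 5 and 58.1 in replicate 6).

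The gene of the ATPase had the strongest peak at a start of its own. *brm* (FBgn0000212, 3L:15970082-15982869, minus strand) shares a promoter region with *Arl1*, a small GTPase of the Golgi, which starts on the other strand. The peak (3L:15982798-15983213, dm6) had an IDR signal of 1515 at rank 78, and its summit lay 129 bp upstream of *brm* and 137 bp upstream of *Arl1*. The signal was 235 at rank 220 in replicate 3, 402 at rank 107 in replicate 5 and 872 at rank 63 in replicate 6. No replicate put it below rank 220, and the relative signal averaged 10.03 ± 4.56 (SD, n = 3). The bases between both starts are shown because they hold the summit, while the peak itself extends past both of their ends. They run over 265 bases (3L:15982870-15983134, plus strand, RefSeq genome of the dm6 assembly), and the capitals mark an 11-base sequence and its reverse complement, which lie on both sides of the summit and were noticed after the sequence had been read.

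brm to Arl1: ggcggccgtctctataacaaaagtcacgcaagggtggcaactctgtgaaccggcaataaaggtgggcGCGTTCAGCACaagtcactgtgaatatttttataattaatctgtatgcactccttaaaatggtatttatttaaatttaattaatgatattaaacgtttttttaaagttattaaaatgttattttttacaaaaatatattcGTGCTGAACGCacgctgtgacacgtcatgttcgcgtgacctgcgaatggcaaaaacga

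The other *brm* peak (3L:15977692-15977810) had an IDR signal of 214 at rank 3491. It lay in intron 3, 5099 bp into the gene. The whole interval also lies inside *CG17029*, a gene on the other strand whose intron holds the summit, 717 bp from its nearest start, and the start of *CG17028* was 774 bp away. Replicates 5 and 6 had it among their 6633 strongest regions, at ranks 2655 and 3671, and replicate 3 had it at rank 7420.

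The genes of the subunits common to BAP and PBAP had weaker signal. *Snr1* (FBgn0011715, 3R:5470926-5472754, plus strand) encodes the SNF5-type subunit and lies head to head with *mRpL44*, a gene of the mitochondrial ribosome. Its 1 peak (3R:5470815-5470957) had an IDR signal of 243 at rank 2935, 87 bp upstream of *Snr1* and 203 bp upstream of *mRpL44*. Replicate 3 had a signal of 63.3, replicate 5 of 54.8 and replicate 6 of 109, at ranks 3295, 4946 and 3155. The 3 relative signals were close to each other, at 1.58 ± 0.32 (SD, n = 3).

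*Bap60* (FBgn0025463, X:13157445-13159508, minus strand) also shares its promoter region: *CG12096* starts on the other strand after 95 bases. The peak (X:13159544-13159694) had an IDR signal of 227 at rank 3211, and its summit lay 139 bp upstream of *Bap60* and 43 bp inside *CG12096*. The replicates spread wider here than at *Snr1*. Signal was 35.5 at rank 7446 in replicate 3, 55.0 at rank 4927 in replicate 5 and 129 at rank 2493 in replicate 6. The relative signal was 1.45 ± 0.68 (SD, n = 3), and replicate 3 lay below 1. For these 3 shared regions, the assay gives no way to assign the peak to one gene of the pair.

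*mor* (FBgn0002783, 3R:15968134-15972913), which encodes a scaffold subunit of the complex, was just outside the IDR list. Its strongest pooled candidate, 316 bp upstream of the start, had a signal of 120 at rank 7120, and the lowest signal in the IDR list was 127.9. Replicate 3 had a signal of 41.9 at rank 6049, replicate 5 of 41.9 at rank 7180 and replicate 6 of 62.1 at rank 6160. So replicates 3 and 6 had it among their 6633 strongest regions and replicate 5 did not. The nearest IDR summit lay 1503 bp from the gene and had a signal of 329 at rank 1910, with no protein-coding start within 1 kb of it. *mor* thus had a candidate at its start in every list, close to the threshold on either side.

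**Figure D1:**
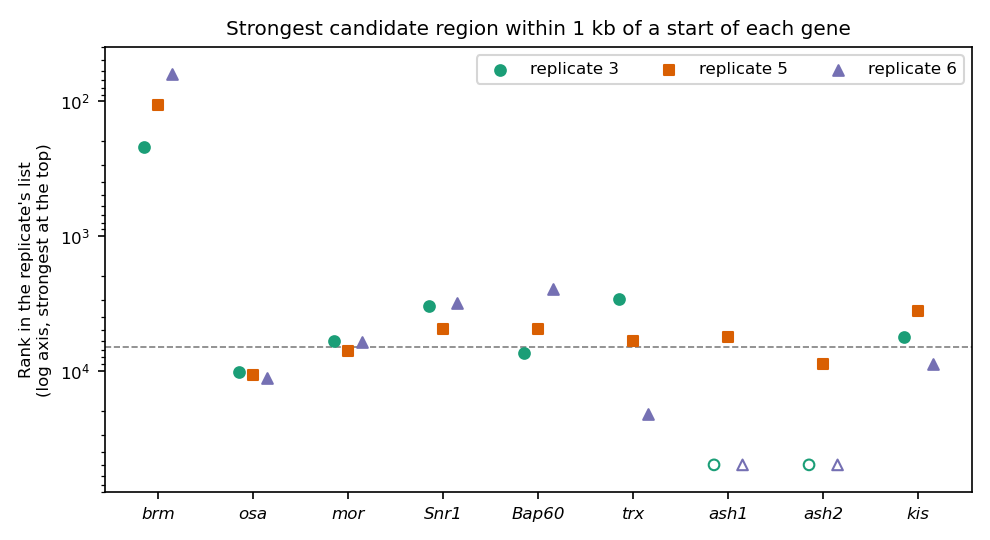
Rank of the strongest candidate region within 1 kb of a start of each gene in replicates 3, 5 and 6 (log axis, strongest at the top). The dashed line is rank 6633 and the open symbols at the bottom stand for a replicate with no candidate there, at an arbitrary height. The *brm* points lie between ranks 63 and 220, those of *mor*, *Snr1* and *Bap60* between 2493 and 7446, and *ash1* and *ash2* have a candidate in replicate 5 alone.

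*osa* (FBgn0261885, 3R:17687818-17718350, minus strand), which encodes the ARID-domain subunit that defines BAP, had the most summits of the 9 genes, and all 6 were in introns. The strongest (3R:17704179-17704729) had an IDR signal of 2591 at rank 17 and lay in intron 4, 13940 bp from the start. Signal was 640 at rank 10 in replicate 3, 746 at rank 17 in replicate 5 and 1204 at rank 24 in replicate 6. It was among the 24 strongest regions of every replicate, with a relative signal of 18.0 ± 2.36 (SD, n = 3). Around its summit stand the following 201 bases (3R:17704310-17704510, plus strand, summit base in capitals), printed because this is the strongest peak inside any of the 9 genes.

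osa intron 4, strongest summit: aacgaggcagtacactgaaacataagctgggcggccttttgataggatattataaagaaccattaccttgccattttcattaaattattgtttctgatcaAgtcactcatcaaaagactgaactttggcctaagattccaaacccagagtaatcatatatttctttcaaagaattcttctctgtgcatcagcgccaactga

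The same intron held 3 more summits, and the 4 spanned 3841 bp. The one nearest to the 3′ end of the gene (3R:17700306-17700811) had an IDR signal of 1298 at rank 113, with ranks of 187, 131 and 98 in replicates 3, 5 and 6. Between these came summits with signals of 589 at rank 737 and 275 at rank 2457. The weaker of them had ranks of 1875 and 2190 in replicates 3 and 6, and rank 7078 in replicate 5. Non-coding genes are annotated inside the intron: the strongest summit was 715 bp past the start of lncRNA:CR46035, the one of rank 737 was 245 bp upstream of it, and the one of rank 113 was 172 bp upstream of lncRNA:CR46036.

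The 5′ part of *osa* had only low signal. A summit in intron 1, 1031 bp from the start, had an IDR signal of 162 at rank 5020, and one in intron 2 had 161 at rank 5050. The intron 1 summit ranked 4854 in replicate 3, 2674 in replicate 5 and 15129 in replicate 6. The intron 2 summit had no candidate within 150 bp in replicate 3 and ranked 3489 and 5033 in replicates 5 and 6. At the start itself the strongest candidates had ranks of 10168, 10830 and 11326 in replicates 3, 5 and 6, outside the 6633 strongest in each. The 201 bases around the intron 1 summit (3R:17717219-17717419, plus strand) are shown as the contrast in sequence: they were 46.3% A and T, against 62.7% at the strongest summit. GAGAG, the short form of the element that GAGA factor binds, and its reverse complement are in capitals, at 7 positions that in part overlap.

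osa intron 1: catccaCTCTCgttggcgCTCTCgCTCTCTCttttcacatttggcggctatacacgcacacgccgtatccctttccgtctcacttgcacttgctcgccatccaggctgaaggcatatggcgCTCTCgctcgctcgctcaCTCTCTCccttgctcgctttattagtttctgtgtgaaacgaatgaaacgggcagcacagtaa

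*trx* (FBgn0003862, 3R:14263358-14286903, minus strand) had 5 summits, all in the 5′ part of the gene. The strongest (3R:14283655-14284070) had an IDR signal of 1168 at rank 154 and lay in intron 1, 3033 bp from the start. Signal was 270 at rank 146 in replicate 3, 328 at rank 186 in replicate 5 and 583 at rank 151 in replicate 6. These ranks were close together, and the relative signal was 8.12 ± 1.66 (SD, n = 3). The bases around this summit (3R:14283770-14283970, plus strand, summit base in capitals) were 72.6% A and T and held none of the 10 motifs searched.

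trx intron 1: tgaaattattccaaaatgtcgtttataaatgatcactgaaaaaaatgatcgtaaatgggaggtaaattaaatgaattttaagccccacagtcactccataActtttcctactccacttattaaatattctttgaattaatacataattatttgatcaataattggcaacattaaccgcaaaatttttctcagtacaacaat

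The other *trx* summits differed in their support. In intron 2, 8813 bp from the start, a peak (3R:14277852-14278298) had an IDR signal of 763 at rank 456, with ranks of 205, 411 and 745 in replicates 3, 5 and 6. A further intron 1 summit had a signal of 310 at rank 2085 and was among the 6633 strongest regions of every replicate as well. Another intron 1 summit had a signal of 140 at rank 5977, and replicate 6 alone had it among its strongest 6633. The summit in the 5′ UTR, 339 bp from the start and the only one that put *trx* in the count of genes bound at a start, had an IDR signal of 129.8 at rank 6526, just inside the list. It ranked 2952 in replicate 3, 6077 in replicate 5 and 29783 in replicate 6. In replicate 6 it was thus near the end of the candidate list, with a signal of 16.6 against 67.9 in replicate 3 and 47.2 in replicate 5.

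*ash1* (FBgn0005386, 3L:19590773-19598755, minus strand) was counted through a peak at its far end. This peak (3L:19590408-19590850) had a signal of 4249 at rank 2 of the IDR list. Its summit lay 159 bp beyond the 3′ end of *ash1*, 8141 bp from the *ash1* start, and 90 bp upstream of *CG14100*, which follows on the same strand after 248 bases. Signal was 663 at rank 7 in replicate 3, 1187 at rank 2 in replicate 5 and 2429 at rank 2 in replicate 6. All 3 replicates had it among their 7 strongest regions, and the relative signal was 28.5 ± 12.5 (SD, n = 3). At the start of *ash1* there was no candidate in replicates 3 and 6, and replicate 5 had one with a signal of 49.7 at rank 5658. The pooled list had this region at rank 15140. The summit of the downstream peak and the bases up to *CG14100* read as follows (3L:19590525-19590714, plus strand). The stretch stops short of the 3′ end of *ash1* at 19590773, and capitals mark a 10-base sequence and its reverse complement.

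ash1 3′ end to CG14100: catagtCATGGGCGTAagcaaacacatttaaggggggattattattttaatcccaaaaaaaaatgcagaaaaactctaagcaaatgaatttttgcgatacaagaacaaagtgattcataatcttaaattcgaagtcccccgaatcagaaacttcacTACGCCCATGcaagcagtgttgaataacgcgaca

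*ash2* (FBgn0000139, 3R:24650125-24653376) had no candidate in its body or within 1 kb in the pooled list or in replicates 3 and 6. Replicate 5 had one of signal 35.2 at rank 8959, 99 bp from a start. The nearest IDR summit lay 19892 bp away. Of the 9 genes it was the only one without a pooled candidate.

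*kis* (FBgn0266557, 2L:210735-250823, minus strand), the longest of the 9, had 5 summits in 2 groups. The pair with the highest signals lay in intron 12, upstream of an internal start by 1591 and 2948 bp, with IDR signals of 472 at rank 1101 and 463 at rank 1135. The nearer one (2L:223395-223719) had a signal of 174 at rank 485 in replicate 3, 122 at rank 1434 in replicate 5 and 183 at rank 1503 in replicate 6, and its relative signal was 3.46 ± 0.90 (SD, n = 3). It lay 34 bp into lncRNA:CR44222. Both were among the 6633 strongest regions of all replicates. The following bases surround the nearer summit (2L:223453-223653, plus strand), and the capitals again mark an 11-base sequence and its reverse complement.

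kis intron 12: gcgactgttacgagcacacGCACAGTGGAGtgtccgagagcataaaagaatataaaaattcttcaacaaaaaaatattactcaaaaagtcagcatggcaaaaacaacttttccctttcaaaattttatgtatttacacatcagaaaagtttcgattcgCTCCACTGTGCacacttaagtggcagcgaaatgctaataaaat

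The remaining 3 *kis* summits lay in intron 1, between 2703 and 4014 bp from the upstream start, with signals of 300, 327 and 240 at ranks 2190, 1923 and 2997. A pair of them, with summits 207 bp apart in overlapping intervals, matched a single region of replicate 6. None of these 3 was among the strongest 6633 regions of every replicate. Near the *kis* starts the strongest candidate ranked 5601 in replicate 3, 3599 in replicate 5 and 8883 in replicate 6.

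**Figure D2:**
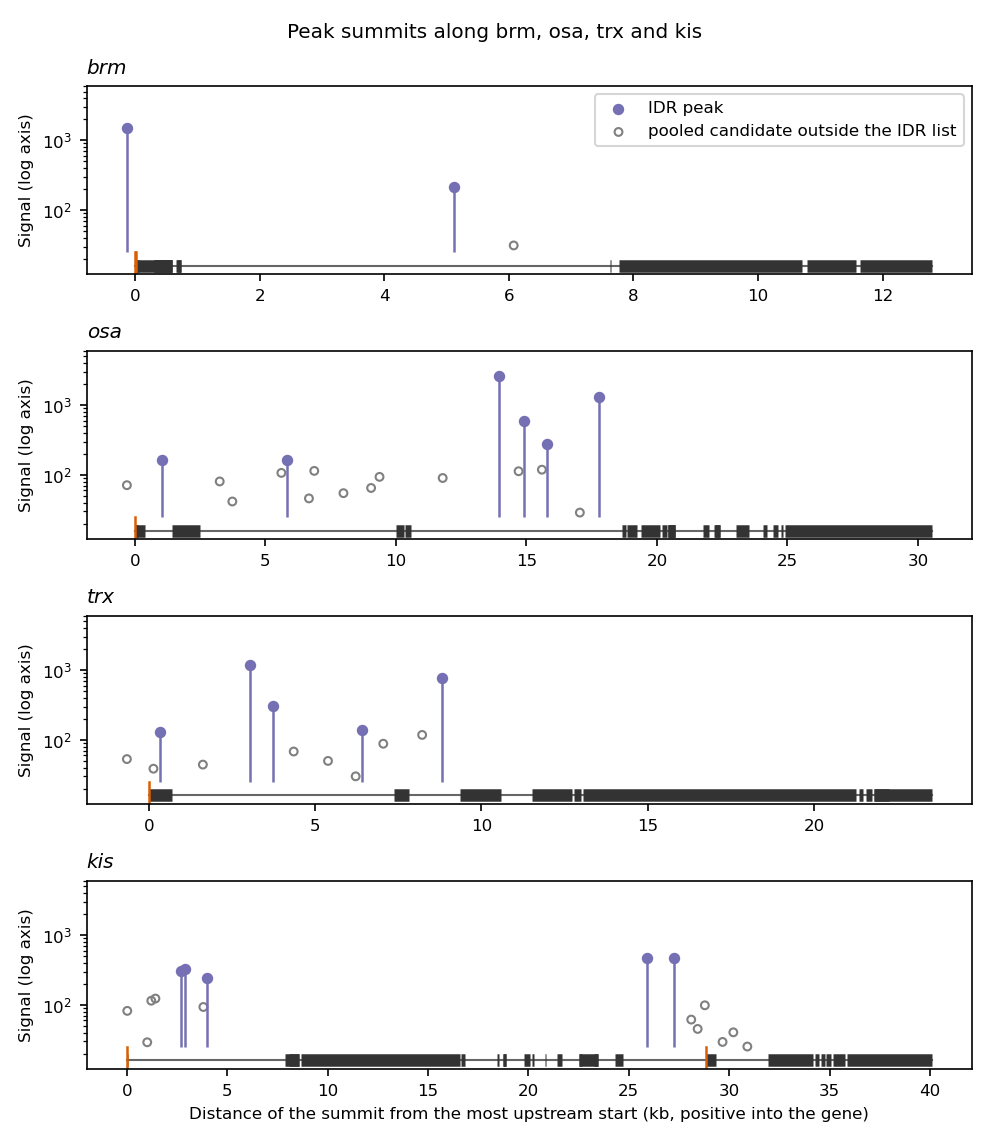
Signal of the IDR summits (filled, with stems) and of pooled candidates outside the IDR list (open) along *brm*, *osa*, *trx* and *kis*, on a log axis. The horizontal axis is the distance in kb from the most upstream start, blocks are exons of any transcript and short vertical bars are annotated starts. The strongest summit is upstream of the start in *brm*, 13940 bp into *osa*, 3033 bp into *trx* and in the intron upstream of the internal start in *kis*.

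Ordered by the strongest peak of each gene, the ranks in the replicates were 2 to 7 at the 3′ end of *ash1*, 10 to 24 in *osa*, 63 to 220 at *brm*, 146 to 186 in *trx*, 485 to 1503 in *kis*, 3155 to 4946 at *Snr1*, 2493 to 7446 at *Bap60* and 6049 to 7180 at *mor*. The ranges of *brm* and *trx* overlapped, as did those of *Bap60* with *Snr1* and with *mor*, so the order within these is not fixed by the replicates. The other neighbours in the order did not overlap. Relative signals of the strong peaks at *ash1* and *brm* were lowest in replicate 3 and highest in replicate 6. The same holds for the top of the lists, since the strongest region of all had a relative signal of 24.4 in replicate 3, 32.2 in replicate 5 and 45.3 in replicate 6.

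Of the 21 peaks, 11 (52.4%) were among the 6633 strongest regions of all 3 replicates, which is close to the 55.5% of all IDR peaks. A further 9 were so in exactly 2 replicates and 1 in a single one. A candidate of any rank was present in all replicates for 19, and the share of all IDR peaks by this measure is not given here. Each of the 5 peaks with a signal over 1000 was among the 11, and the weakest peak among the 11 was that of *Snr1*.

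**Figure D3:**
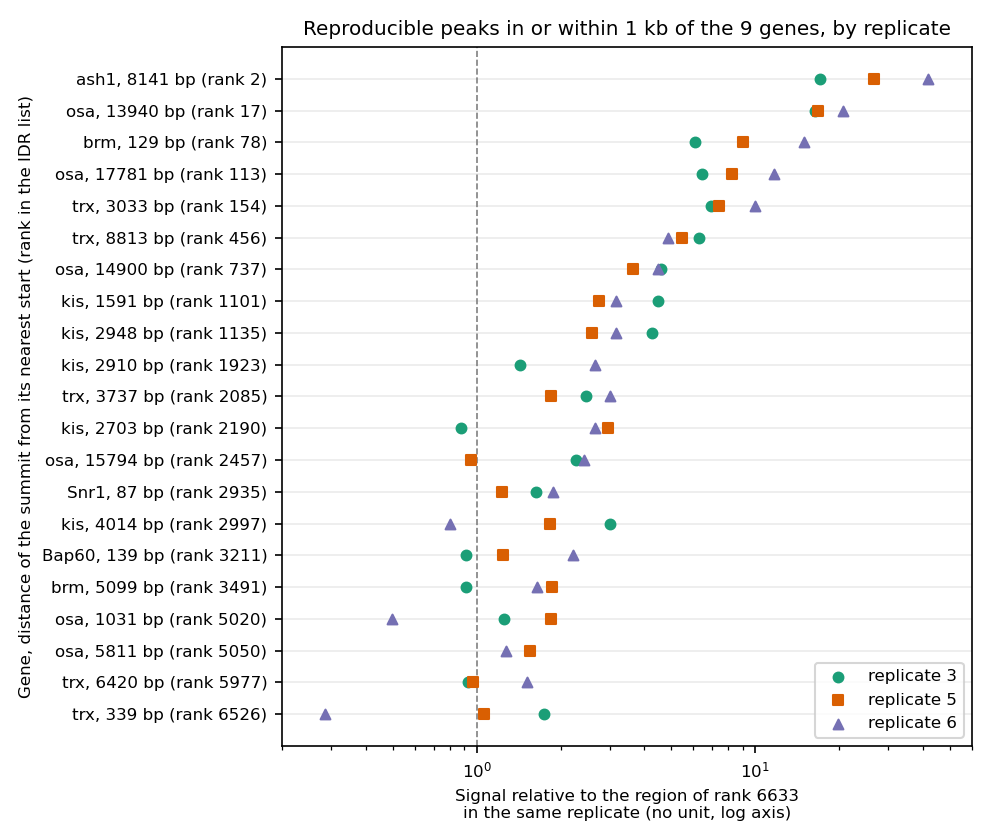
Relative signal of each of the 21 IDR peaks in replicates 3, 5 and 6 (log axis), ordered by IDR rank from the top. The dashed line at 1 is the region of rank 6633 in the same replicate, and a missing symbol means no candidate summit within 150 bp. The 9 strongest peaks lie right of the line in all replicates, while among the others 10 have at least 1 replicate left of the line or missing.

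Counted replicate by replicate, 4 to 6 of the 9 genes were bound near a start, and not the same ones. In replicate 3, 5 of the 9 genes (*brm*, *mor*, *Snr1*, *trx* and *kis*) had one of the 6633 strongest regions within 1 kb of a start, against 25.4% of all protein-coding genes. In replicate 5 these were 6 genes (*brm*, *Snr1*, *Bap60*, *trx*, *ash1* and *kis*), against 26.2%. In replicate 6 they were 4 genes (*brm*, *mor*, *Snr1* and *Bap60*), against 26.5%. *brm* and *Snr1* were the 2 genes found in every replicate, and *osa* and *ash2* were found in none.

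Gene length bears on the counts over gene bodies, since long genes hold more summits, and also on the counts at starts. A summit within 1 kb of a start was found in 20.6% of genes under 5 kb. It was found in 38.4% of genes of 5 to 20 kb and in 40.8% of genes of 20 to 45 kb. Among 638 protein-coding genes of 20 to 45 kb, the class of *osa*, *trx* and *kis*, 58.6% had at least 1 summit, with a median of 1 (quartiles 0 and 3). In this class 88 genes (13.8%) had 5 or more summits, as *trx* and *kis* did, and 60 (9.40%) had 6 or more, as *osa* did. Candidates of any rank were also denser in *osa*, *trx* and *kis* than over the genome, which had 0.218 per kb. In replicates 3, 5 and 6 there were 0.768, 0.799 and 0.768 candidates per kb in *osa*. There were 0.509, 0.509 and 0.548 in *trx* and 0.380, 0.380 and 0.428 in *kis*. Shorter members exceeded the genome too: *mor* had 0.590, 0.295 and 0.442, and *Snr1* and *Bap60* were above it in every replicate. *brm* was above it in replicates 3 and 5 (0.473 and 0.406) and below it in replicate 6 (0.135). *ash1* and *ash2* were above it in replicate 5 alone. The density was thus not particular to the long members, and none is given for other genes of their length. Among 10476 genes under 5 kb, the class of *mor*, *Snr1*, *Bap60* and *ash2*, 24.7% had a summit. Among 2472 genes of 5 to 20 kb, the class of *brm* and *ash1*, 48.3% had one.

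**Figure D4:**
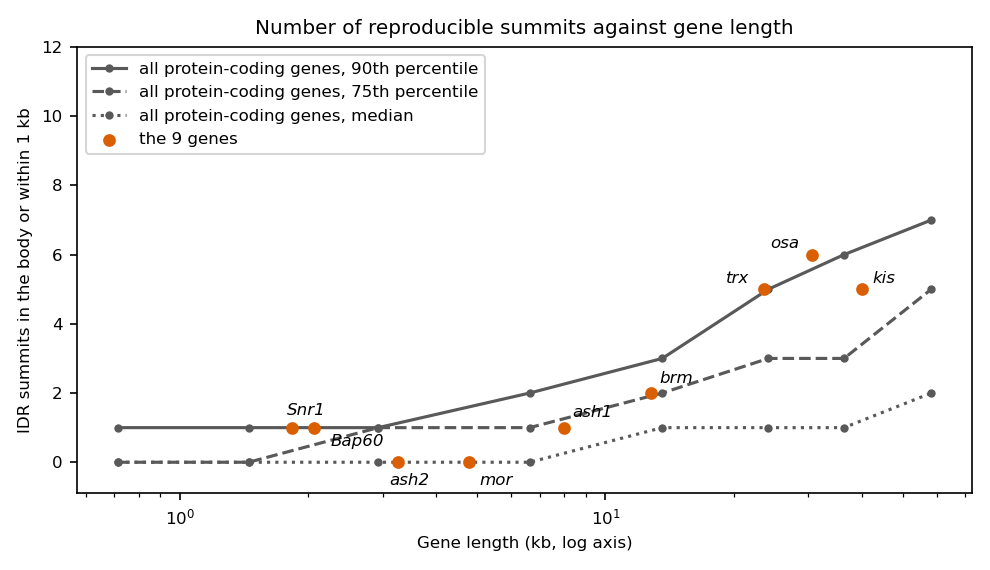
Number of IDR summits in the gene body or within 1 kb against gene length (log axis) for the 9 genes (points), with the median, 75th and 90th percentile of all protein-coding genes up to 90 kb in 8 length classes (lines, drawn at the median length of each class). *osa* lies above the drawn line of the 90th percentile, *trx* on it and *kis* below it, while *mor* and *ash2* lie at 0. The 6 summits of *osa* equal the 90th percentile of 6 in its own class of 30 to 45 kb.

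Other genes of the same pathways were counted in 4 lists. None of the 8 other Brahma complex subunits listed (*Bap55*, *Bap111*, *Bap170*, *polybromo*, *e(y)3*, *d4*, *BCL7-like* and *Brd7-9*) had an IDR summit in its body or within 1 kb, against 31.5% of all genes. Among these, 5 had a pooled candidate near a start, and the strongest, at *Bap55*, which encodes an actin-related subunit, had a signal of 127.6 at rank 6653, immediately below the end of the IDR list. In single replicates, 1 of the 8 reached the 6633 strongest regions near a start in replicate 3 (*BCL7-like*, rank 4851), none did in replicate 5 and 1 did in replicate 6 (*d4*, rank 4871). The shares of all genes were 25.4%, 26.2% and 26.5% in replicates 3, 5 and 6. *polybromo*, whose product defines the PBAP form of the complex, had no candidate in any of the 4 lists of candidates. Of the 5 Brahma genes among the 9, *brm*, *osa*, *Snr1* and *Bap60* had an IDR summit in the body or within 1 kb, and *mor* had none. Taken with the 8 others, which had none against 31.5% of all genes, these do not show binding across the complex. No share of all genes is given for candidates of any rank, and 8 genes are too few to show that summits are missing.

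Of 17 genes that encode partners of Trx and Ash1 or COMPASS-type subunits, 6 had an IDR summit near a start and 8 in the body or within 1 kb. The strongest signals among these were 695 at *nej*, the CBP acetyltransferase, 449 at *Ncoa6*, 257 at *Lpt* and 229 downstream of *wds*, which encodes a WD-repeat subunit of these complexes. Of 10 genes of other remodelling ATPases and their partners, 7 had a summit near a start. *Mi-2*, the NuRD ATPase, had a signal of 895 in an intron, *Chd1* had 418, *Ino80* 347 and *dom* 279. Of 9 other trithorax group regulators, 7 had a summit near a start, with 44 summits in all. *Trl*, the gene of GAGA factor, had a signal of 2183 at rank 28 in an intron. *tara* had 1142 as the strongest of its 16 summits, *tna* 731 with 9 summits and *corto* 467. Over the 4 lists, 20 of 44 genes (45.5%) had a summit near a start and 22 (50%) in the body or within 1 kb, against the 25.2% and 31.5% of all genes given above. Among the 3317 strongest IDR peaks alone, the 20 fell to 10, against 14.6% of all genes, and they were 12 without replicate 6, against 19.1%. The 44 genes had a median length of 7.44 kb, and the 9 regulators one of 21.5 kb. Of all genes of 5 to 20 kb, 38.4% had a summit near a start and 48.3% in the body or within 1 kb.

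Among protein-coding genes, 48 others had 6 IDR summits as *osa* did. The 5 whose strongest signal was nearest to the 2591 of *osa* were *Lpin* with 1921, *E23* with 1441, *REPTOR* with 1347, *simj* with 1310 and *CG42238* with 1193. None of them reached the signal of *osa*.

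In sequence, the windows of 201 bases around the 21 summits were A- and T-rich, with a median of 65.7% A and T, against 64.2% in all IDR windows and 55.7% in windows 1000 bp to each side of the same summits. GAGAG, counted on both strands, stood in 8 of 21 windows (38.1%), against 26.6% of IDR windows and 24.97% of 19275 promoter windows of the same length. All 8 were in *osa*, *trx* and *kis*, which held 16 of the 21 summits, and they had a median A and T content of 59.95%, against 68.7% in the 13 without it. GCCAT, the core of the element that Pho binds, was in 7 windows (33.3%), against 25.4% of IDR windows and 30.8% of promoters. CAGGTA was found in 1 window (4.76%), against 3.84% of IDR windows and 4.26% of promoters. AGATAA was found in 1, against 13.5% of IDR windows and 10.6% of promoters. CACACACA was found in 1, against 4.46% of IDR windows and 3.99% of promoters. No window held TATCGATA, which 2.25% of all IDR windows and 6.44% of promoters hold. The others without a match were GGTCACAC (1.90% of IDR windows), CACGTG (1.90%), GTCTAGAC (0.136%) and GCCGNCGC (1.82%). At these shares 21 windows are too few to show that a motif is missing.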

How the data were processed

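Binding of Snoo-eGFP was measured by ChIP-seq in 3 replicates of 1 group of whole pupae. The authors deposited narrowPeak lists on dm6 and dm3, per replicate, for pooled replicates and as an IDR list, per the deposited file listings. The dm6 lists were used. The signal in them is the value of the authors' peak caller, made against a control alignment that was not analysed here. The −log10 q-value is also the authors' and was the same in every peak of the IDR list, so it only broke ties in rank. The sources used here do not give their aligner, caller or IDR threshold. In replicate 3, 6 mitochondrial rows were left out.

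Genes, starts and exons came from Ensembl release 115 (BDGP6.54), and sequence came from the RefSeq genome of the same assembly. No peak ran past the end of an arm. Near a start means a summit at most 1000 bp from it, and a replicate's summit matched a peak at 150 bp or less. Ranks count from 1 at the highest signal. Place in the gene was read at the summit, and intron numbers follow the longest transcript with an intron there. Motifs and reverse-complementary arms were searched on both strands from 100 bp before to 100 bp after a summit, and this search was tested on simulated sequences. Python 3.11.15, numpy 2.4.6, pandas 2.3.3 and matplotlib 3.10.9 were used.

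Members, gene lists, motifs and alternatives were chosen with earlier results of these data known. The text names all 9 genes with every IDR summit, the protein-coding genes that start within 1 kb of one, up to 4 genes a list by signal, and the 5 genes most like *osa*; examples among the 8 other Brahma subunits were named after their values were seen. Of 44 other genes, 42 matched by symbol and 2 by synonym. Replicates are called biological in the labels. No count was tested, and genes, summits and windows are not replicates.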

Additional observations from a re-analysis of the deposited data

How the results depend on the processing

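Of the 4 genes with a summit near a start, the count moved to 7 with 2000 bp in place of 1000 bp (*mor*, *osa* and *kis* added, with 30.7% of all genes) and to 2 with peaks among the strongest regions of all 3 replicates (*brm* and *Snr1*, with 16.1% of all genes). It was 3 to 4 when a replicate was left out, with 18.1% to 19.7% of all genes. *trx* was lost without replicate 3. Without replicate 5, *mor* was gained and *Bap60* and *trx* were lost. Without replicate 6, *kis* was gained and *Bap60* was lost. The 21 summits, of 6633 in all, became 11 of 3682 when support in all 3 replicates was asked for. They became 15 to 16, of 4349 to 4683 in all, when a replicate was left out. The number of peaks among the strongest regions of all replicates moved from 11 to 7 with summits within 50 bp and to 19 with all candidates. The shares of all IDR peaks at these settings are not given here. The 20 other trithorax group genes near a start became 10 in the strongest 3317 peaks (14.6% of all genes) and 13 with support in all replicates (16.1%). They were 12 to 17 when a replicate was left out (18.1% to 19.7%), 12 without replicate 6 (19.1%). The GAGAG windows fell to 4 (19.0%) with windows of 50 bp on each side, against 12.9% of IDR windows of that length. Those of CAGGTA and of CACACACA fell to 0, against 1.97% and 1.70% of IDR windows. The count of 7 genes over bodies was between 6 and 8 under all settings run, against 19.8% to 37.4% of all genes. These were not always the same genes. *mor* was gained with 2000 bp and without replicate 5. *Bap60* was lost without replicate 5, without replicate 6 and with support in all 3 replicates. The depth of reads is unknown, and genes such as *mor*, *trx* and *Bap55* lie at the edge of the IDR list. No paired analysis was possible because all replicates belong to 1 group.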

Other observations

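After the sequences had been read, arms of at least 10 bases that are each other's reverse complement were counted in the windows of 201 bases. They were present in 5 of the 21 windows (23.8%), against 7.58% of all IDR windows and 5.08% of windows 1000 bp to each side. The 5 were at the *brm* start (arms of 11 bases), at the 3′ end of *ash1* (10), in *kis* intron 12 (11) and at 2 summits of *trx* (10 each). In *brm*, *ash1* and *kis* the arms were 63.6%, 60% and 63.6% G and C and stood 129, 140 and 128 bases apart, with the summit between them. In the *trx* windows the arms were 20% G and C and stood 12 and 153 bases apart. The count was chosen on these windows and has no test.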
